A study of Homo sapiens with 12 samples.

Results

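Interferon-stimulated genes were examined in HOS-MNNG cells given NXP800. The set is a list of 45 gene symbols, taken as listed from the 43236 gene symbols of the count files. Of these, 44 were found by symbol and RIGI was found under its older symbol DDX58. HOS-MNNG (MNNG/HOS) is an established line of human osteosarcoma, derived from HOS cells by chemical transformation. NXP800 is an oral small molecule first developed against the heat shock factor HSF1 and described by the study as an activator of the kinase GCN2. The cells received either NXP800 at 300 nM or its solvent DMSO, each for 6 h or for 24 h, which gave 4 groups (DMSO 6 h, NXP800 6 h, DMSO 24 h and NXP800 24 h) of 3 poly(A) RNA-seq libraries each. All groups came from the same line, and the labels name neither an engineered change nor an interferon treatment, so the response of these genes to interferon was not measured here.

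Interferons are secreted proteins that cells release when they sense foreign or misplaced nucleic acid. Type I and type III interferons signal through the receptor-bound kinases JAK1 and TYK2 to a transcription factor complex that holds STAT2 and IRF9, which binds the interferon-stimulated response element (ISRE) in gene promoters. Interferon gamma acts mainly through another promoter element, the gamma-activated sequence (GAS). The genes switched on in this way encode sensors of viral RNA, enzymes that degrade or edit RNA, proteins that block viral entry and translation, and proteins that return the pathway to rest. Many of them keep a low level without added interferon in tumour cell lines.

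Each library held between 30810614 and 31947656 counts on genes, and replicates of a group differed by more than sampling noise (chi-square per degree of freedom of 7.95 to 28.6). Read pairs on no annotated gene were 6.66 to 8.14% in the 6 h libraries and 2.73 to 3.67% in the 24 h libraries. NXP800 was compared with DMSO of its own time, and levels in DMSO were not tested between times, since time and library set cannot be told apart. Of 8 mesenchymal and osteoblast markers, VIM (3336 to 5888 CPM), COL1A1 (143 to 566), SPARC (91.6 to 614), FN1 (132 to 495) and RUNX2 (20.7 to 42.5) were present in every library, while COL1A2, COL3A1 and ALPL reached at most 0.378 CPM. Of these 8, 2 were called higher and 2 lower at 6 h, and 1 higher and 4 lower at 24 h, where SPARC fell by 2.02 on the log2 scale. Among 11 markers of other cell types, PTPRC, CD3E, MS4A1, CDH1 and CDH5 stayed at or below 0.24 CPM and PECAM1 and VWF at or below 0.914 CPM. KRT18 (580 to 919 CPM), CD68 (60.9 to 154), EPCAM (5.59 to 10.2) and CD14 (0.123 to 3.36) were higher. With NXP800, the summed level of the 5 blood cell markers lay at 61.2 to 73.2 CPM at 6 h, against 62.8 to 79.4 CPM in DMSO, and at 120.1 to 155 CPM at 24 h, against 70.5 to 93.2 CPM, nearly all of it CD68. CD14 fell at both times. The summed level of the 3 epithelial markers, nearly all of it KRT18, lay at 624 to 709 CPM with NXP800 at 6 h, against 680 to 802 CPM in DMSO, and at 590 to 727 CPM at 24 h, against 880 to 925 CPM. The part of these changes in the results that follow was not tested. In bulk RNA, fewer cells with a transcript and less transcript per cell cannot be told apart. The labels do not say whether replicates were separate cultures. The study's methods describe its results in general as means of 3 or more independent experiments, with their number given as N in the legends. The legend for these libraries gives N = 3, and the sequencing methods give 3 replicates, without saying that they were separate cultures. The p-values measure the spread between these libraries, which may be technical.

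NXP800 moved the interferon-stimulated genes in both directions. Among the 38 genes with enough reads to test, 5 were called higher and 12 lower at 6 h, which is 44.7% of them, against 52.8% of all 15979 genes tested (4000 higher and 4435 lower). At 24 h, 12 were called higher and 15 lower, which is 71.1%, against 56.0% of all genes (4387 higher and 4566 lower). With the replicate number as a block, 6 were called higher and 17 lower at 6 h, beside 62.3% of all genes, and 12 higher and 17 lower at 24 h, beside 65.2%. A call is an adjusted p below 0.05 in the quasi-likelihood test of edgeR, after Benjamini-Hochberg correction across all tested genes. At both times *IFI16*, *ISG20*, *IRF1* and *SP100* rose, and *RIGI*, *OAS3*, *CMPK2*, *IFIT1*, *IFIT2*, *IFITM1*, *IFITM2*, *IFITM3*, *ISG15* and *USP18* fell. The median log2 fold change of the tested genes was -0.33 at 6 h, beside -0.0458 over all genes. At 24 h it was -0.21 beside -0.00333 over all genes. It changed sign to 0.0934 when genes with fewer than 10 counts in any library were left out. That filter drops genes whose counts became low with NXP800. Among them were *BST2*, *CMPK2*, *IFI44*, *IFIT1* and *OASL*, all called lower at 24 h. It also dropped *IFIH1*, *IFI44L* and *XAF1*, which were not called. These counts and medians are descriptions, since a rarely read gene can pass the filter through the group in which it is high. The same holds for counts within role groups and promoter classes, which were not tested as groups.

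**Figure D1:**
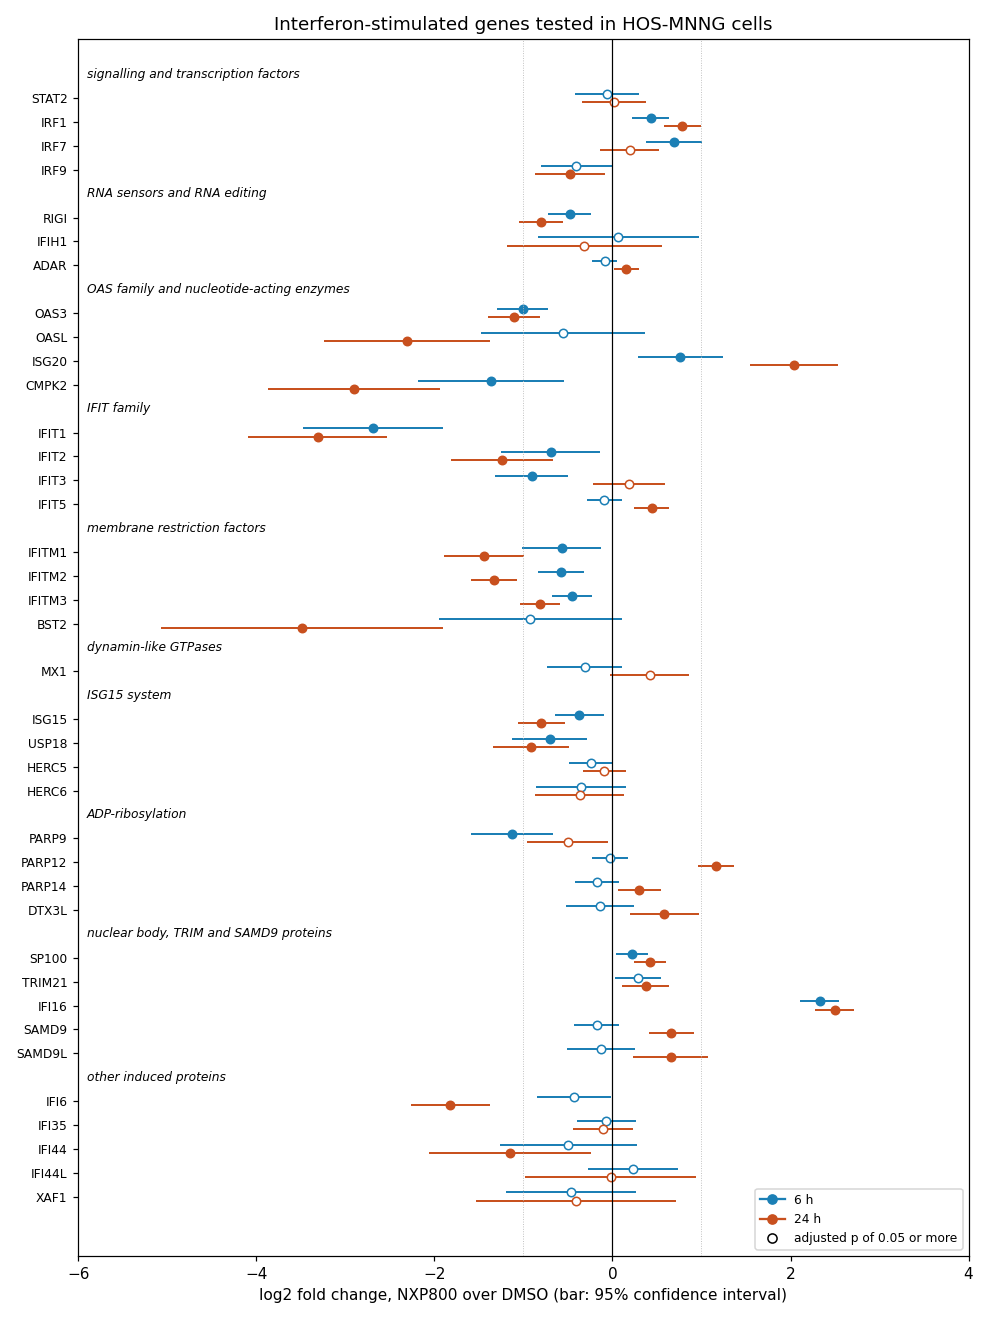
Log2 fold change of NXP800 over DMSO (horizontal axis) for the 38 tested genes, grouped by role, at 6 h (blue) and 24 h (orange). Bars are 95% confidence intervals, filled points are calls and open points are not. IFI16 stands farthest to the right at both times, with 2.33 and 2.50, and IFIT1 and BST2 farthest to the left at 6 h and 24 h, with -2.69 and -3.48.

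The other 7 genes were too rarely read to test. *DHX58*, the third RIG-I-like receptor, had at most 3 counts in a library. *OAS1* reached 8 counts and *OAS2* reached 2. *RSAD2* (viperin), an antiviral radical enzyme, had at most 3 counts, *MX2* at most 5, *TRIM22* at most 2 and *IFI27* at most 5. Each of them lay at or close to 0 in all 12 libraries, so changes in them were not detectable at this depth.

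Per kilobase of exon, the most abundant of the genes in DMSO at 6 h was *IFITM2*, with 27.0 ± 5.21 CPM per kb (SD, n = 3), followed by *IFITM3* with 21.2 ± 2.90 CPM per kb. The ranges of these neighbours in the order overlapped within their SDs. *ISG15* came next with 8.06 ± 0.582 and *ADAR* with 7.48 ± 0.551 CPM per kb, also within their spread of each other. *IFI16* was eighth in this order in DMSO, at 3.24 ± 0.199 CPM per kb, and second with NXP800 at 6 h, at 16.2 ± 0.603 CPM per kb. Its neighbours lay within this spread, namely *IFI6* (3.27 ± 0.654) and *SP100* (3.19 ± 0.352) in DMSO and *IFITM3* (15.4 ± 1.59) with NXP800. *IFI6* held rank 5 in DMSO at 24 h, at 4.73 ± 0.409 CPM per kb, and rank 18 with NXP800, at 1.34 ± 0.305 CPM per kb. The length used was that of all exon bases of a gene in GENCODE, over all its transcripts, while counting was on RefSeq gene models. The order depends on this length. In CPM alone, *IFITM3* stood above *IFITM2* in DMSO at 6 h (60.2 ± 8.24 and 43.4 ± 8.36 CPM).

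The promoters of these genes were searched for short motifs. Interferon-stimulated genes are switched on through the ISRE, so a high share of ISRE matches comes with the choice of the list. The RefSeq promoter table of GRCh38.p14 (250 bases before to 50 bases after a start site) held 36 of the 45 genes. The ISRE core, searched as GAAANNGAAA and as its reverse complement TTTCNNTTTC, occurred in 21 of these 36 (58.3%) and in 996 of all 27305 promoters (3.65%). It occurred 39 times in all, 36 of them starting before the start site, and 14 genes held several matches, which overlap each other in *BST2* and *HERC5* among others. The GAS motif TTCNNNGAA, which is its own reverse complement, was found in 8 of 36 promoters (22.2%) and in 7.88% of all. The C/EBP-ATF response element, searched as TGATGNAA and TTNCATCA, was found in 0 of 36 and in 3.67% of all promoters. A match describes the letters and is not shown to be a bound site.

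The 160 bases before the start site are given for 3 genes that fell at 24 h and 3 that rose. The bases are written 5′ to 3′ on the strand of the gene, with ISRE core matches in capitals. All of these genes but *IFI16* hold a match. The regions are chr10:89392463-89392622 on the plus strand for *IFIT1*, chr12:112938314-112938473 on the plus strand for *OAS3* and chr1:27672193-27672352 on the minus strand for *IFI6*. For the genes that rose they are chr15:88638856-88639015 on the plus strand for *ISG20*, chr7:140062952-140063111 on the minus strand for *PARP12* and chr1:159008831-159008990 on the plus strand for *IFI16*. The RefSeq starts used for *ISG20* and *IFI16* lie inside the GENCODE gene, whose first base is at 88635632 and 158999976 respectively, so starts farther upstream were not searched.
IFIT1: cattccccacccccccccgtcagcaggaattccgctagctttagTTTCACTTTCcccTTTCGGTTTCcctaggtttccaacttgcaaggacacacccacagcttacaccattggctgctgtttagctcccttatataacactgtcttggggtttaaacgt
OAS3: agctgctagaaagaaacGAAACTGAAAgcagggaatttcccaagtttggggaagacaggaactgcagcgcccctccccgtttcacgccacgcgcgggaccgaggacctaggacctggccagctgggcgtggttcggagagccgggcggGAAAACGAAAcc
IFI6: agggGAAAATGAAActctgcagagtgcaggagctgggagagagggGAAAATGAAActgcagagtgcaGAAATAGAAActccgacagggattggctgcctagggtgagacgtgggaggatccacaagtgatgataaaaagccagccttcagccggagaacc
ISG20: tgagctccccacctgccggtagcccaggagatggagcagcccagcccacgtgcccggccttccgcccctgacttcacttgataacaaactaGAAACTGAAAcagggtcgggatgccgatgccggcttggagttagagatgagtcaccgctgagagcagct
PARP12: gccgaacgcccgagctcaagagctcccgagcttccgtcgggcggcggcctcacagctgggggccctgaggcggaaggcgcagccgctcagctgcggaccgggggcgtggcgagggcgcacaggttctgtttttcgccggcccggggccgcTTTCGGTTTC
IFI16: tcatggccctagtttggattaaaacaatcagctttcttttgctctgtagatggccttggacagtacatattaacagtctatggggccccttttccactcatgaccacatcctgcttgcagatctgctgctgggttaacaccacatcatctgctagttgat
*IFIT1* holds 2 matches on the opposite strand, *OAS3* 2 and *IFI6* 3 on its own strand, *ISG20* 1, and *PARP12* 1 that ends at the last base before the start. *IFI16*, which rose most of all tested genes of the list, holds none in this window.

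Genes with and without a match moved both ways. Of the 20 tested genes with an ISRE core match, 1 was called higher and 6 lower at 6 h, and 7 higher and 8 lower at 24 h, beside 52.8% and 56.0% of all genes called in either direction. Of the 13 tested genes whose promoter held no match, 3 were called higher and 3 lower at 6 h, and 5 higher and 3 lower at 24 h. The 5 tested genes without a promoter entry gave 1 higher and 3 lower at 6 h, and 4 lower at 24 h. The median log2 fold change at 6 h was -0.28 with a match, -0.13 without and -0.58 for genes without an entry, and at 24 h it was -0.0553, -0.103 and -1.24. Both directions thus occurred with and without a match, and the difference between the 2 sets was not tested.

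**Figure D2:**
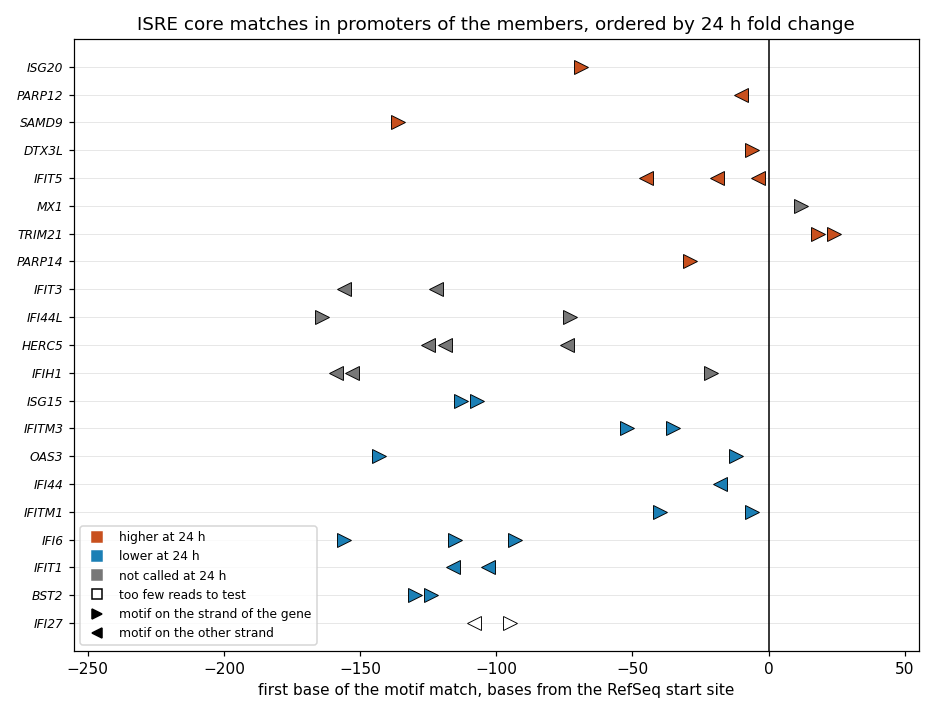
Position of each ISRE core match (horizontal axis, bases from the RefSeq start site, black line at 0) in the 21 genes that hold one (rows, from the highest to the lowest log2 fold change at 24 h, with the untested IFI27 last). Triangles point along the strand of the motif relative to the gene, and colours give the call at 24 h. Matches lie mostly within the 160 bases before the start, and both the 7 genes called higher and the 8 called lower hold them close to the start and farther away.

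Among the signalling and transcription factors, *IRF1*, a transcription factor that acts at many of these promoters, rose at both times. Its level was 23.2 ± 2.54 CPM in DMSO and 31.3 ± 2.92 CPM with NXP800 at 6 h (SD, n = 3, as for all levels that follow), a log2 fold change of 0.43 (SE 0.0923, adjusted p = 0.000946). The levels of 24 h were 22.6 ± 1.46 and 39.0 ± 2.35 CPM, with a log2 fold change of 0.78 (SE 0.0925, adjusted p = 2.47e-06). The groups did not overlap at either time. *IRF7*, which drives interferon genes, rose at 6 h by 0.69 on the log2 scale (SE 0.143, adjusted p = 0.000778), from 2.79 ± 0.352 to 4.50 ± 0.0935 CPM. At 24 h *IRF7* gave 0.19 (adjusted p = 0.288), and its difference between the times was not called (-0.49, adjusted p = 0.0936).

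*IRF9*, the DNA-binding part of the STAT complex, fell by 0.48 at 24 h (SE 0.179, adjusted p = 0.0315), with overlapping groups. That call was lost without DMSO replicate 2, NXP800 replicate 1 or NXP800 replicate 3 of 24 h, where the adjusted p reached 0.179, and also with scaling by library size only (0.0983) and in a fit of the 24 h libraries alone (0.0554). With the replicate number as a block the 24 h call held (adjusted p = 0.00186). At 6 h *IRF9* gave -0.41 (adjusted p = 0.0748), and was called lower with the replicate number as a block (adjusted p = 0.00897). *STAT2*, the partner of IRF9, gave -0.06 at 6 h and 0.02 at 24 h, with 95% intervals of -0.41 to 0.29 and -0.33 to 0.36.

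Among the RNA sensors and editors, *RIGI*, the receptor for short viral RNA, fell at both times. It went from 19.4 ± 2.23 to 13.9 ± 1.66 CPM at 6 h, a log2 fold change of -0.48 (SE 0.107, adjusted p = 0.00127). At 24 h it went from 16.6 ± 1.16 to 9.54 ± 0.609 CPM, a log2 fold change of -0.80 (SE 0.111, adjusted p = 1.36e-05). Every NXP800 library lay below every DMSO library of its time. Another gene model overlaps 43.2% of its exon bases in GENCODE, and the library kit keeps the strand, but the strand setting of the counting is not given in the sources used here. Whether reads of overlapping genes were kept apart is therefore not known. In GENCODE, such overlaps also cover 22.9% of the exon bases of *IRF1*, 27.2% of *IRF9*, 31.6% of *IFITM1*, 16.3% of *IFITM3*, 13.6% of *IFIT2* and 38.3% of *XAF1*. Counting was on RefSeq gene models, and whether these hold the same overlaps was not examined.

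*IFIH1* (MDA5), the sensor of long double-stranded RNA, had only 9 to 26 counts a library and gave 0.07 at 6 h and -0.32 at 24 h, with 95% intervals as wide as -0.83 to 0.96 and -1.18 to 0.54. *ADAR*, the enzyme that edits adenosine to inosine in double-stranded RNA, rose slightly at 24 h, from 126 ± 3.24 to 140 ± 5.33 CPM. Its log2 fold change was 0.16 (SE 0.0605, adjusted p = 0.0364), and the call was lost without any 1 of the DMSO libraries or NXP800 replicate 1 of 24 h (adjusted p up to 0.12) and without a filter on low counts (0.0669). With the replicate number as a block the call held (adjusted p = 0.011). At 6 h it gave -0.08 (adjusted p = 0.262).

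In the group of OAS proteins and nucleotide-acting enzymes, 3 of the 4 tested genes fell at 24 h and 1 rose, beside 28.6% and 27.5% of all genes. *OAS3* makes the oligoadenylates that activate the ribonuclease RNase L. It stood at 10.9, 13.4 and 11.2 CPM in DMSO and at 5.49, 6.36 and 5.83 CPM with NXP800 at 6 h. At 24 h the values were 10.8, 9.71 and 12.8 CPM in DMSO and 5.15, 4.54 and 5.77 CPM with NXP800. The groups were far apart at each time, and the NXP800 levels were alike at both. *OAS3* fell by 1.01 on the log2 scale at 6 h (SE 0.130, adjusted p = 7.77e-06) and fell by 1.11 at 24 h (SE 0.133, adjusted p = 2.98e-06).

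*OASL*, a relative of the OAS enzymes that enhances RIG-I signalling, was weakly expressed. It had 24, 45 and 35 counts in DMSO and 20, 38 and 14 with NXP800 at 6 h, which overlapped. Counts at 24 h were 79, 86 and 35 in DMSO and 22, 14 and 6 with NXP800. DMSO replicate 3 was low among the controls of 24 h, but still above every NXP800 library. *OASL* fell by 2.31 on the log2 scale at 24 h (SE 0.435, adjusted p = 0.000276), and gave -0.55 at 6 h (adjusted p = 0.296).

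*ISG20*, an exonuclease that degrades single-stranded RNA, went the other way. It had 38, 59 and 33 counts in DMSO and 72, 79 and 74 with NXP800 at 6 h. The 24 h libraries held 29, 22 and 31 counts in DMSO and 98, 117 and 141 with NXP800. No NXP800 library overlapped the DMSO libraries, and the gap was wider at 24 h. *ISG20* rose 1.70-fold at 6 h (log2 0.76, SE 0.222, adjusted p = 0.00834) and 4.10-fold at 24 h (log2 2.04, SE 0.228, adjusted p = 1.42e-06).

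*CMPK2*, a mitochondrial nucleotide kinase, lies head to head with *RSAD2* on chromosome 2 and shares 8.0% of its exon bases with it. It had 16, 16 and 14 counts in DMSO and 5, 7 and 6 with NXP800 at 6 h. By 24 h there were 17, 19 and 16 counts in DMSO and 5, 1 and 1 with NXP800. The groups did not overlap, and 2 of the NXP800 libraries of 24 h were down to a single read. *CMPK2* fell by 1.36 on the log2 scale at 6 h (SE 0.382, adjusted p = 0.00678) and fell by 2.90 at 24 h (SE 0.450, adjusted p = 4.35e-05). Without NXP800 replicate 1 of 24 h the latter value was -4.05, and it lay between -4.05 and -2.51 with any 1 library left out. From the summed counts of 24 h, 52 against 7, DMSO was 7.83 times NXP800, with a 95% interval of 3.54 to 20.4 that covers counting error only.

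The IFIT family, clustered on chromosome 10, encodes proteins that bind viral RNA and block its translation, and its 4 tested genes did not move as one. *IFIT1*, which recognizes RNA without cap methylation, had 49, 34 and 46 counts in DMSO and 5, 11 and 4 with NXP800 at 6 h. In the 24 h libraries, counts were 52, 65 and 56 in DMSO and 9, 7 and 2 with NXP800. It was close to absent from all 6 NXP800 libraries. *IFIT1* fell by 2.69 on the log2 scale at 6 h (SE 0.367, adjusted p = 1.42e-05) and fell by 3.31 at 24 h (SE 0.362, adjusted p = 1.08e-06). The summed counts gave a DMSO to NXP800 ratio of 6.56 at 6 h (95% interval 4.08 to 11.1, counting error only) and of 10.1 at 24 h (6.22 to 17.5).

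*IFIT2*, an IFIT protein linked to cell death, had 44, 48 and 45 counts in DMSO and 20, 36 and 30 with NXP800 at 6 h. Counts at 24 h were 58, 59 and 38 in DMSO and 16, 30 and 23 with NXP800. The groups did not overlap at either time. *IFIT2* fell by 0.69 at 6 h (SE 0.259, adjusted p = 0.0330) and fell by 1.24 at 24 h (SE 0.264, adjusted p = 0.00079). The 6 h call was lost in DESeq2 (adjusted p = 0.0735) and without any 1 of the 6 h libraries except NXP800 replicate 2, where the adjusted p reached 0.156.

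*IFIT3*, which stabilizes IFIT1 on RNA, stood at 5.00, 6.71 and 4.59 CPM in DMSO and at 2.30, 3.55 and 2.82 CPM with NXP800 at 6 h. The 24 h libraries held 4.08, 4.57 and 3.50 CPM in DMSO and 5.28, 3.89 and 4.62 CPM with NXP800. The groups were apart at 6 h and overlapped at 24 h. *IFIT3* fell by 0.91 at 6 h (SE 0.187, adjusted p = 0.000699) and gave 0.18 at 24 h (adjusted p = 0.426), and the difference of 1.09 between the responses was called (SE 0.264, adjusted p = 0.00651).

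*IFIT5*, which binds a broader range of RNA, had the highest level per kilobase of the family. It rose at 24 h from 19.9 ± 1.01 to 27.0 ± 2.77 CPM, a log2 fold change of 0.44 (SE 0.0886, adjusted p = 0.000491). At 6 h it gave -0.09 (adjusted p = 0.412).

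Of the 4 tested membrane restriction factors, 3 were called lower at 6 h and 4 at 24 h, beside 27.8% and 28.6% of all genes, and 3 of the 4 are IFITM genes that share sequence. The IFITM proteins sit in cell and endosome membranes and hinder the fusion of enveloped viruses. *IFITM1* stood at 6.49, 4.29 and 4.49 CPM in DMSO and at 4.05, 3.33 and 2.88 CPM with NXP800 at 6 h. By 24 h the levels were 6.52, 8.37 and 7.14 CPM in DMSO and 2.24, 2.26 and 3.60 CPM with NXP800. The groups lay just apart at 6 h and clearly apart at 24 h. *IFITM1* fell by 0.57 at 6 h (SE 0.203, adjusted p = 0.0260) and fell by 1.44 at 24 h (SE 0.205, adjusted p = 1.84e-05). Its 6 h call was lost without DMSO replicate 1, NXP800 replicate 2 or NXP800 replicate 3 of 6 h (adjusted p up to 0.170).

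*IFITM2* stood at 49.0, 47.4 and 33.8 CPM in DMSO and at 30.1, 29.4 and 27.7 CPM with NXP800 at 6 h. In the 24 h libraries, levels were 69.1, 80.2 and 77.7 CPM in DMSO and 31.6, 26.4 and 32.2 CPM with NXP800. The NXP800 libraries of both times held about the same level, while the DMSO libraries of 24 h stood above those of 6 h. *IFITM2* fell by 0.58 at 6 h (SE 0.117, adjusted p = 0.000615) and fell by 1.33 at 24 h (SE 0.117, adjusted p = 9.44e-08). *IFITM3*, the most studied IFITM protein against influenza virus, fell by 0.46 at 6 h (SE 0.101, adjusted p = 0.00125) and fell by 0.81 at 24 h (SE 0.101, adjusted p = 4.16e-06). Between 15.0 and 20.1% of the distinct 50-base stretches in transcripts of each of these IFITM genes also occur in another IFITM gene, so the split of reads among them is uncertain.

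*BST2* (tetherin), which holds budding viruses at the cell surface, had 20, 23 and 15 counts in DMSO and 12, 14 and 5 with NXP800 at 6 h. Counts at 24 h were 5, 23 and 18 in DMSO and 0, 1 and 3 with NXP800. The NXP800 libraries lay below the DMSO libraries at both times, by 1 count at 6 h and by 2 counts at 24 h at the closest. At 24 h *BST2* fell (fitted log2 fold change -3.48, SE 0.743, adjusted p = 0.000808), a size that depends on the fit at such counts. It was -4.70 without NXP800 replicate 3 of 24 h, and between -4.70 and -2.96 with any 1 library left out. The summed counts of 46 and 4 gave a DMSO to NXP800 ratio of 12.1 (95% interval 4.42 to 46.4, counting error only). At 6 h the log2 fold change was -0.92 (adjusted p = 0.12), and it was called lower with the replicate number as a block (adjusted p = 0.0218).

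*MX1*, the tested dynamin-like GTPase, which traps viral nucleocapsids, was not called. It stood at 2.24 ± 0.119 CPM in DMSO and 1.81 ± 0.123 CPM with NXP800 at 6 h (log2 -0.31, adjusted p = 0.189). At 24 h it stood at 1.48 ± 0.335 and 1.98 ± 0.371 CPM (log2 0.42, adjusted p = 0.0904). The difference between the times (0.73) had an adjusted p of 0.0665, and was called when the replicate number was a block (adjusted p = 0.0326).

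In the ISG15 system, the modifier and its protease fell at both times. *ISG15*, a ubiquitin-like protein joined to other proteins, went from 6.99 ± 0.505 to 5.40 ± 0.591 CPM at 6 h and from 11.8 ± 0.371 to 6.77 ± 0.923 CPM at 24 h. It fell by 0.37 at 6 h (SE 0.123, adjusted p = 0.0184) and fell by 0.80 at 24 h (SE 0.119, adjusted p = 2.77e-05). The 6 h call was lost without DMSO replicate 2, NXP800 replicate 1 or NXP800 replicate 3 of 6 h (adjusted p up to 0.0723). *USP18*, which removes ISG15 and also damps the type I receptor, fell by 0.71 at 6 h (SE 0.193, adjusted p = 0.00567) and fell by 0.92 at 24 h (SE 0.195, adjusted p = 0.000798).

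*HERC5*, the main ligase that attaches ISG15, stood at 8.62 ± 0.485 CPM in DMSO and 7.28 ± 0.415 CPM with NXP800 at 6 h. Its log2 fold change was -0.24 (adjusted p = 0.0694, and 0.0256 with the replicate block), and at 24 h it was -0.09 (adjusted p = 0.510). *HERC6*, a related ligase, gave -0.35 at 6 h (adjusted p = 0.221), and its -0.37 of 24 h was called only with the block (adjusted p = 0.190 without it and 0.0463 with it). Neither ligase was called at either time without the block.

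The genes of ADP-ribosylation encode products that modify proteins during infection and DNA repair. The difference between the times was called higher for 3 of the 4, beside 1925 of 15979 genes. The difference call of *PARP12* held without any 1 library. Those of *PARP14* and *DTX3L* were each lost when any 1 of 8 libraries was left out, in fits without the replicate block. With the block and all libraries both were called (adjusted p = 0.0016 and 0.000286). At 6 h, 1 of the 4 was called lower, beside 27.8% of all genes, and none higher. At 24 h, 3 were called higher, beside 27.5% of all genes, and none lower. *PARP9* had 97, 79 and 76 counts in DMSO and 40, 39 and 38 with NXP800 at 6 h. The 24 h libraries held 59, 75 and 71 counts in DMSO and 34, 56 and 63 with NXP800. The groups were far apart at 6 h and overlapped at 24 h. *PARP9* fell by 1.13 at 6 h (SE 0.212, adjusted p = 0.000313), and gave -0.50 at 24 h (adjusted p = 0.0522, and 0.0127 with the replicate block).

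*PARP12*, a mono-ADP-ribosyltransferase that restricts several viruses, stood at 24.4, 25.2 and 21.0 CPM in DMSO and at 23.8, 24.0 and 21.3 CPM with NXP800 at 6 h. By 24 h the levels were 19.2, 17.3 and 17.6 CPM in DMSO and 37.7, 39.0 and 44.0 CPM with NXP800. The groups overlapped at 6 h, while every NXP800 library of 24 h lay above all other libraries. *PARP12* rose 2.23-fold at 24 h (log2 1.16, SE 0.0901, adjusted p = 2.27e-08), and gave -0.03 at 6 h (adjusted p = 0.795). The difference between the responses was 1.19 (SE 0.127, adjusted p = 7.1e-06).

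*DTX3L*, the ubiquitin ligase that pairs with PARP9, is transcribed from the opposite strand at the same start region on chromosome 3. It rose by 0.58 at 24 h (SE 0.177, adjusted p = 0.0101), from 8.98 ± 2.76 to 13.4 ± 1.70 CPM, with overlapping groups. The call was lost without DMSO replicate 1 of 24 h (adjusted p = 0.0538), the lowest of its controls, and held with the replicate number as a block (adjusted p = 2.58e-05). *PARP14*, which also lies on chromosome 3 and acts on STAT signalling in immune cells, rose by 0.30 at 24 h (SE 0.109, adjusted p = 0.0273). That call was lost without DMSO replicate 1 or 2 or NXP800 replicate 2 or 3 of 24 h (adjusted p up to 0.0890). The *PARP14* call held with the block (adjusted p = 0.00161). At 6 h *DTX3L* gave -0.14 and *PARP14* -0.17, and neither was called.

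Of the nuclear body, TRIM and SAMD9 proteins, the 5 tested genes all were called higher at 24 h and 2 of them at 6 h, beside 27.5% of all genes at 24 h and 4000 of 15979 genes at 6 h. *IFI16*, a nuclear sensor of DNA, had the largest rise among the tested genes of the list. It stood at 17.5, 17.9 and 15.9 CPM in DMSO and at 84.4, 89.6 and 83.8 CPM with NXP800 at 6 h. In the 24 h libraries, levels were 16.8, 13.5 and 16.8 CPM in DMSO and 94.4, 94.6 and 77.0 CPM with NXP800. The lowest NXP800 library was several times the highest DMSO library at each time. *IFI16* rose 5.01-fold at 6 h (log2 2.33, SE 0.0969, adjusted p = 5.09e-11) and 5.65-fold at 24 h (log2 2.50, SE 0.0982, adjusted p = 2.23e-11). The difference of 0.17 between the responses was not called (95% interval -0.11 to 0.46). It spans chr1:158999976-159055151 in GENCODE, and *PYDC5* shares 8.03% of its exon bases.

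*SP100*, a component of PML nuclear bodies, rose by 0.22 at 6 h with overlapping groups (SE 0.0804, adjusted p = 0.0298) and by 0.42 at 24 h (SE 0.0816, adjusted p = 0.000341), from 35.7 ± 0.349 to 47.9 ± 2.35 CPM at the later time. The 6 h call was lost without DMSO replicate 1 or 3 or NXP800 replicate 1 or 2 of 6 h (adjusted p up to 0.143). *TRIM21*, an antibody receptor in the cytosol, rose by 0.37 at 24 h (SE 0.119, adjusted p = 0.0135), which was lost without NXP800 replicate 3 of 24 h (adjusted p = 0.0710). At 6 h *TRIM21* gave 0.28 (adjusted p = 0.0526, and 0.0231 with the replicate block). It was also called higher with DESeq2 size factors (0.0462), library size only (0.0348), at least 10 counts in every library (0.0475) and the 6 h libraries alone (0.0179). It was not called without a filter or in DESeq2.

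*SAMD9* and *SAMD9L*, neighbours on chromosome 7 whose products block translation and poxvirus growth, rose at 24 h. *SAMD9* went from 8.79 ± 0.764 to 13.9 ± 1.10 CPM (log2 0.66, SE 0.115, adjusted p = 0.000133). *SAMD9L* went from 1.36 ± 0.310 to 2.14 ± 0.398 CPM (log2 0.65, SE 0.196, adjusted p = 0.00955), a call lost without DMSO replicate 2 of 24 h (adjusted p = 0.0583). At 6 h they gave -0.18 and -0.13, without a call.

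Among the other induced proteins, 2 of the 5 tested fell at 24 h, beside 28.6% of all genes. None was called at 6 h, beside 52.8% of all genes called in either direction. *IFI6*, a small protein of the endoplasmic reticulum and mitochondria, had 90, 119 and 85 counts in DMSO and 71, 87 and 64 with NXP800 at 6 h. Counts at 24 h were 122, 130 and 141 in DMSO and 40, 30 and 47 with NXP800. The groups overlapped at 6 h and were far apart at 24 h. *IFI6* fell by 1.82 at 24 h (SE 0.203, adjusted p = 1.33e-06), and gave -0.43 at 6 h (adjusted p = 0.0697, and 0.0155 with the replicate block). A noncoding gene, *LINC02574*, overlaps 23.1% of its exon bases in GENCODE.

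*IFI44*, a microtubule-associated protein, had 41, 60 and 46 counts in DMSO and 28, 43 and 35 with NXP800 at 6 h. The 24 h libraries held 41, 45 and 14 counts in DMSO and 25, 15 and 7 with NXP800. The groups overlapped at both times, and DMSO replicate 3 of 24 h was the low control. *IFI44* fell by 1.15 at 24 h (SE 0.423, adjusted p = 0.0290), a call lost without DMSO replicate 1 or 2 or NXP800 replicate 2 or 3 of 24 h (adjusted p up to 0.134). With the replicate number as a block the call held (adjusted p = 0.00085). At 6 h it gave -0.50 (adjusted p = 0.263, and 0.0432 with the block).

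*IFI44L*, its neighbour on chromosome 1, had 48, 104 and 77 counts in DMSO and 97, 98 and 78 with NXP800 at 6 h. By 24 h there were 8, 6 and 12 counts in DMSO and 10, 9 and 8 with NXP800. Treatment gave 0.23 at 6 h and -0.02 at 24 h, without a call, while every 24 h library lay below every 6 h library, whichever the treatment. *IFI35* gave -0.07 at 6 h (95% interval -0.39 to 0.26) and -0.10 at 24 h (-0.43 to 0.22). *XAF1*, a promoter of apoptosis, had 2 to 29 counts a library and gave -0.46 and -0.41, without a call.

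**Figure D3:**
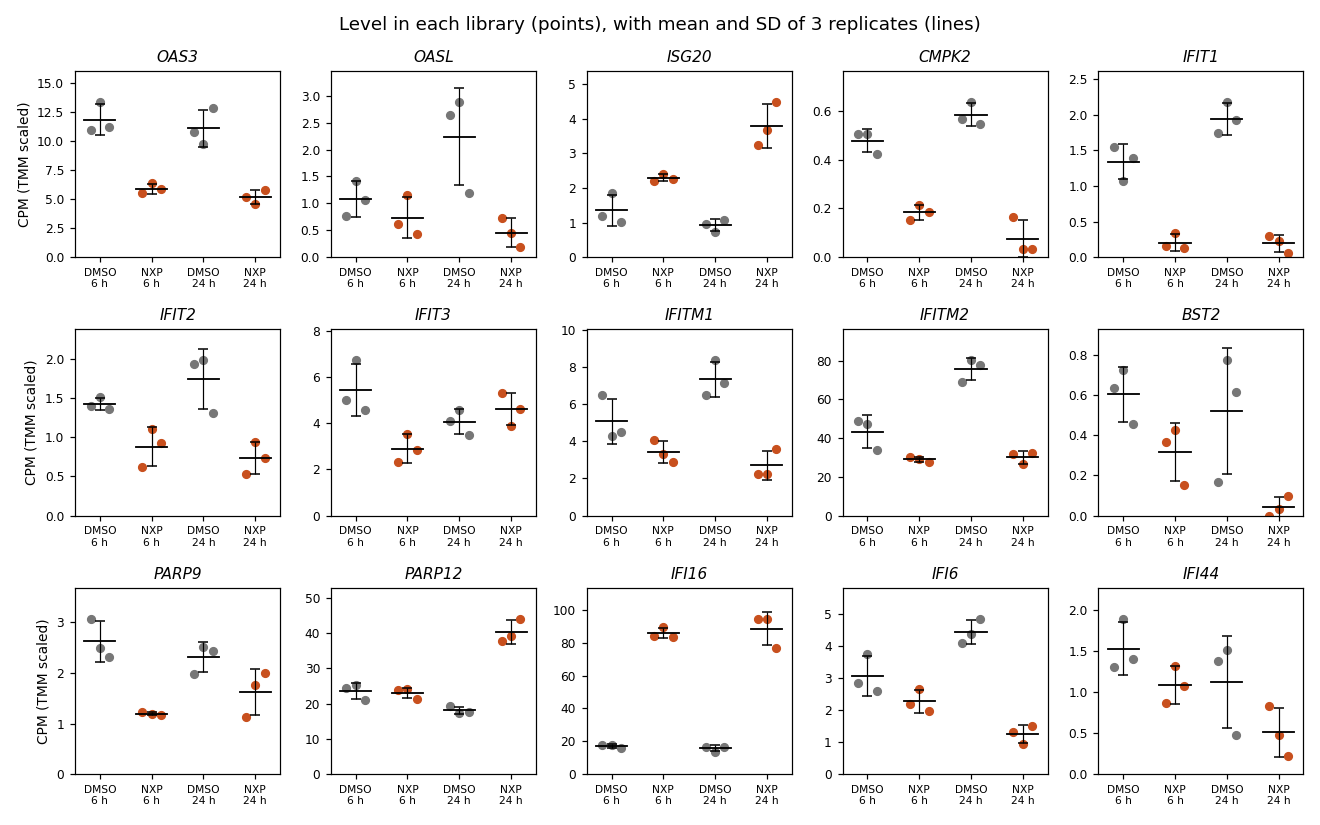
CPM (vertical axis, TMM scaled, from 0) of the 15 genes that changed by at least 1 on the log2 scale with a call in some comparison, in the 3 libraries of each group (points, grey for DMSO and orange for NXP800), with the mean and SD as lines. IFI16 stands between 77.0 and 94.6 CPM in all NXP800 libraries against 13.5 to 17.9 CPM in DMSO, and PARP12 is high only in NXP800 at 24 h, with 37.7 to 44.0 CPM.

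The responses at 24 h and 6 h were set against each other in the same fit. The difference was called for 13 of the 38 genes (34.2%), 9 with a higher and 4 with a lower response at 24 h, beside 25.9% of all genes (1925 higher and 2207 lower). With the replicate block these counts were 11 and 8, beside 39.3% of all genes. The block added *IRF1* (0.35, adjusted p = 0.0051), *RIGI* (-0.32, adjusted p = 0.0158), *IFITM3* (-0.36, adjusted p = 0.00312), *BST2* (-2.57, adjusted p = 0.00707), *ISG15* (-0.43, adjusted p = 0.0198) and *MX1*. No gene was called in opposite directions at the 2 times. Besides *PARP12*, *IFIT3* and *ISG20* (1.27, SE 0.322, adjusted p = 0.00845), the higher responses at 24 h were those of *SAMD9* (0.84, adjusted p = 0.00138), *IFIT5* (0.53, adjusted p = 0.00537), *SAMD9L*, *DTX3L*, *PARP14* and *ADAR*. The lower responses were those of *IFI6* (-1.39, SE 0.280, adjusted p = 0.00181), *IFITM2* (-0.75, SE 0.165, adjusted p = 0.00326), *IFITM1* and *OASL*.

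Among these 13, 7 calls held without any 1 of the 12 libraries, namely those of *ISG20*, *IFIT3*, *IFIT5*, *IFITM2*, *PARP12*, *SAMD9* and *IFI6*. The other 6 depended on most of the libraries in these fits, which held no replicate block. With the block and all 12 libraries, each of the 6 was called. The adjusted p was then 0.0133 for *ADAR*, 0.00128 for *OASL*, 0.00248 for *IFITM1*, 0.0016 for *PARP14*, 0.000286 for *DTX3L* and 0.022 for *SAMD9L*. In the fits without the block, the losses were as follows. For *ADAR* (0.24, adjusted p = 0.0492) the call held only without DMSO 6 h replicate 2 or NXP800 24 h replicate 3, and the adjusted p otherwise reached 0.152. For *OASL* (-1.76, adjusted p = 0.0478) it was lost without 8 libraries, all but DMSO 6 h replicate 2, NXP800 6 h replicate 3, DMSO 24 h replicate 3 and NXP800 24 h replicate 1 (up to 0.185). For *IFITM1* (-0.87, adjusted p = 0.0360) it was lost without 8, all but DMSO 6 h replicate 1, NXP800 6 h replicate 3, DMSO 24 h replicate 1 and NXP800 24 h replicate 3 (up to 0.106). *PARP14* (0.47, adjusted p = 0.0334) and *DTX3L* (0.72, adjusted p = 0.0428) lost it without 8, all but DMSO 6 h replicate 3, NXP800 6 h replicate 2, DMSO 24 h replicate 3 and NXP800 24 h replicate 1 (up to 0.0899 and 0.106). *SAMD9L* (0.79, adjusted p = 0.0370) lost it without 9, all but DMSO 24 h replicates 1 and 3 and NXP800 24 h replicate 1 (up to 0.103).

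The pathway above these genes was examined with a list of 41 ligands, receptors, kinases, sensors, transcription factors and inhibitors. Transcripts of the listed ligands, which hold *IFNA1* as the only interferon alpha gene, were almost absent. *IFNB1*, *IFNA1*, *IFNK*, *IFNL2*, *IFNL3* and *IFNG* had 0 counts in all 12 libraries, *IFNL1* had at most 1, and *IFNE* had 1 to 6. Among the 31 tested genes of this list, 5 were called higher and 11 lower at 6 h (median log2 fold change -0.15) and 7 higher and 12 lower at 24 h (median -0.0961). The share called was 51.6% at 6 h and 61.3% at 24 h, beside 52.8% and 56.0% of all genes. The difference between the responses was called higher for 8 and lower for 2 of them (32.3%, beside 25.9% of all genes), and with the replicate block for 10 and 5, beside 39.3% of all genes.

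The receptor chain *IFNAR1* gave 0.01 at 6 h and -0.10 at 24 h, without a call. Its partner *IFNAR2* fell by 0.48 at 6 h (SE 0.0699, adjusted p = 2.6e-05) and gave -0.17 at 24 h (adjusted p = 0.0534, and 0.0267 with the replicate block), and the difference of 0.32 was called (adjusted p = 0.0268). The type III receptor *IFNLR1* fell by 0.93 at 6 h (SE 0.182, adjusted p = 0.000457) and fell by 0.65 at 24 h (SE 0.163, adjusted p = 0.00287). *TYK2* fell by 0.42 at 24 h (adjusted p = 0.00123) and *JAK1* rose by 0.23 at 24 h (adjusted p = 0.0139). *IRF3* was not called, with -0.11 at the early and -0.16 at the late time, and the late value was called lower only with the replicate block (adjusted p = 0.00908, against 0.189 without it). The largest rises of the list were those of *TRIM25*, a ubiquitin ligase that acts on RIG-I, with 1.28 at 6 h (SE 0.0754, adjusted p = 1.59e-09) and 2.01 at 24 h (SE 0.0766, adjusted p = 2.02e-11), and of the weakly expressed factor *IRF5*, with 1.49 (adjusted p = 0.0004) and 1.27 (adjusted p = 0.000772). The largest called fall at 24 h was that of *TLR3*, an endosomal RNA sensor with 5 to 15 counts a library, which fell by 0.91 (SE 0.373, adjusted p = 0.0474).

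**Figure D4:**
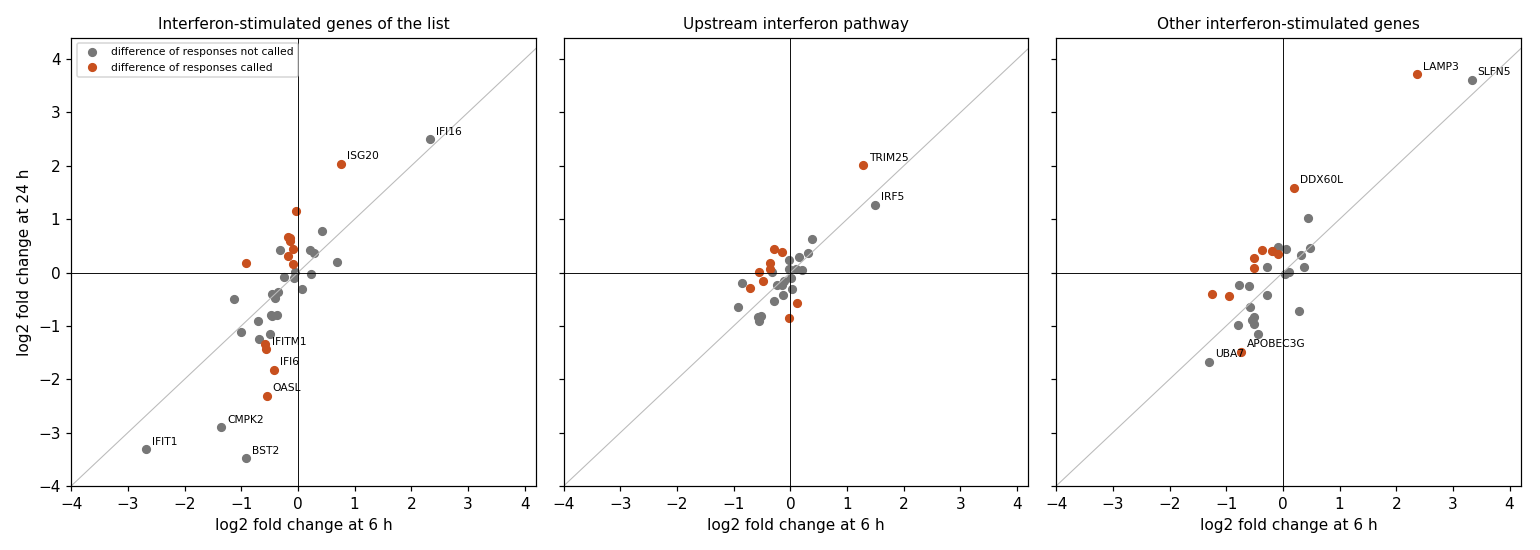
Log2 fold change at 24 h (vertical axis) against that at 6 h (horizontal axis) for the 38 tested genes of the list (left), 31 genes of the pathway above them (middle) and 32 other interferon-stimulated genes (right). Each point is a gene, orange where the difference between the responses was called, the grey line marks equal responses, and names are given from 1.4 in size at either time. IFI16 and SLFN5 lie near the line far up, and OASL lies far below it.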

How the data were processed

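The deposited values are raw counts of read pairs per gene symbol in 12 libraries of poly(A) RNA. According to the labels and the study's methods, the authors used fastp 0.20.1 for trimming, STAR 2.7.5a for alignment to hg38 and HTSeq 0.12.4 for counting on RefSeq gene models. The library kit is strand-specific. The strand setting of the counting and the rule for reads on several genes are not given in the sources used here. Counter entries without a gene were kept out of library sizes and tests. Ambiguous reads were 2.10 to 2.43% of a library, and reads aligned to several places 1.86 to 1.99% at 6 h and 2.96 to 3.37% at 24 h.

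Counts were filtered with filterByExpr (15979 genes kept), scaled by TMM and tested with the quasi-likelihood test of edgeR 4.0.16 in R 4.3.3, in 1 fit of the 4 groups (common dispersion 0.00723). P-values were adjusted by Benjamini-Hochberg over all genes tested. CPM are TMM scaled. The procedure was tested on simulated data. The difference of the responses is the 24 h fold change minus the 6 h one. Genes changed by at least 1 on the log2 scale with a call are given library by library. Other genes of the list are given by mean and SD, by counts or by log2 fold change only. For the pathway list, a few fixed genes and the largest changes each way were named, and a gene that this names is not reported here. The list of genes and all other lists were chosen with earlier results of these data known.

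Replicate numbers paired the libraries: with group means removed, an NXP800 and a DMSO library that shared a number had a correlation across genes of 0.159 to 0.329, against -0.268 to 0.0580 for different numbers. The pairing comes from the replicate numbers in the labels, and genes are not independent replicates. The alternatives were DESeq2 size factors, library size only, no filter, at least 10 counts in every library, DESeq2 1.42.0, a fit of each time point alone, the replicate block, an adjusted p below 0.01, and each library left out in turn. The fits with a library left out held no replicate block. Exon lengths and overlaps come from GENCODE v44 and promoters from RefSeq, both on GRCh38. Counting intervals of ratios are exact and cover counting error only.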

Additional observations from a re-analysis of the deposited data

Results flagged for a closer look

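The response to NXP800 differed between 24 h and 6 h for 13 genes of the list by the test of the difference itself. This was edgeR's quasi-likelihood test, Benjamini-Hochberg adjusted over all genes tested. The 13 are 34.2% of the 38 tested, beside 25.9% of all genes. In fits without the replicate block, 7 of these calls held when any 1 library was left out. The log2 differences, 24 h minus 6 h, were 1.27 for *ISG20*, 1.19 for *PARP12*, 1.09 for *IFIT3*, 0.84 for *SAMD9*, 0.79 for *SAMD9L*, 0.72 for *DTX3L*, 0.53 for *IFIT5*, 0.47 for *PARP14* and 0.24 for *ADAR*. They were -1.76 for *OASL*, -1.39 for *IFI6*, -0.87 for *IFITM1* and -0.75 for *IFITM2*. Groups of 3 libraries are too small for a test of single outlying libraries.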

How the results depend on the processing

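The numbers of genes called at 6 h and at 24 h stayed within 1.5 times under every alternative. The difference of the responses was less stable. Its 9 higher calls were 5 at an adjusted p below 0.01 and 5 to 10 with 1 library left out (5 without NXP800 6 h replicate 1 or 3, DMSO 24 h replicate 2 or NXP800 24 h replicate 2). Its 4 lower calls were 2 with library size only, 2 at an adjusted p below 0.01, 8 with the replicate block and 2 to 6 with 1 library left out (2 without DMSO 6 h replicate 3, NXP800 6 h replicate 1 or 2, DMSO 24 h replicate 2 or NXP800 24 h replicate 2). The median log2 fold change at 6 h was -0.21 with at least 10 counts in every library and -0.40 to -0.25 with 1 library left out. At 24 h it was -0.12 with library size only, -0.35 without a filter, 0.0934 with at least 10 counts in every library, -0.36 in DESeq2, -0.0832 with only the libraries of the time point and -0.28 to -0.0918 with 1 library left out. The filters change which genes are counted, and for the other settings the cause was not tested. Values near 0 changed sign for *PARP12* at 6 h (0.0029 with only the libraries of the time point, -0.11 to 0.023 with 1 library left out) and for the difference of *OAS3* (-0.20 to 0.016). The replicate block lost no call in any of the 3 comparisons. It added 6 at 6 h, 2 at 24 h and 6 in the difference, which are given with their genes. Of these, scaling or filter settings also added *TRIM21* at 6 h, *PARP9* at 24 h and the differences of *IRF1*, *IFITM3* and *BST2*. With library size only, the differences of *OASL* (adjusted p = 0.0621) and *IFITM1* (0.0568) were lost, with only the libraries of 24 h *IFI44* (0.0626), in DESeq2 the difference of *SAMD9L* (0.0533), and with DESeq2 size factors or no filter that of *ADAR* (0.0606 and 0.0994). The losses of *IRF9*, *ADAR* and *IFIT2* at a single time are given with their genes. *BST2* did not pass the filter with only the libraries of 24 h, nor 5 genes called lower at 24 h (*BST2*, *CMPK2*, *IFI44*, *IFIT1* and *OASL*) with at least 10 counts in every library. Below about 30 counts a library, as for *CMPK2*, *BST2* and *IFIH1*, counting error is large.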

Other observations

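A further list of 35 interferon-stimulated genes outside the 45 gave 5 genes called higher and 12 lower at 6 h among 32 tested (median log2 fold change -0.28), and 10 higher and 12 lower at 24 h (median 0.0459), in edgeR's quasi-likelihood test. These are 53.1% and 68.8% of them, beside 52.8% and 56.0% of all genes. *SLFN5*, a Schlafen family gene, had the largest rise at 6 h. It went from 11.0 ± 0.0697 to 111 ± 6.11 CPM at 6 h and from 10.5 ± 3.28 to 129 ± 23.8 CPM at 24 h (SD, n = 3), log2 fold changes of 3.33 (adjusted p = 2.25e-10) and 3.62 (adjusted p = 9.13e-11). *LAMP3*, a lysosomal membrane protein, rose by 2.37 at 6 h and by 3.71 at 24 h (adjusted p = 1.98e-07 and 5.53e-10), and its difference between the times was called (1.34, adjusted p = 0.00558). *DDX60L* rose by 1.59 at 24 h (adjusted p = 1.26e-08) and gave 0.19 at 6 h (adjusted p = 0.184).

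The largest called fall of this list at 6 h was that of *ZC3HAV1*, the zinc finger antiviral protein, by 1.26 (SE 0.0713, adjusted p = 1.09e-09), which fell by 0.40 at 24 h (SE 0.0689, adjusted p = 0.000109). *APOBEC3G*, a cytidine deaminase that mutates retroviruses, fell by 0.75 at 6 h (adjusted p = 0.000138) and fell by 1.49 at 24 h (adjusted p = 2.47e-07). The conjugating enzyme of ISG15, *UBE2L6*, fell by 0.54 at 6 h (adjusted p = 0.0121) and fell by 0.89 at 24 h (adjusted p = 0.000654), and the activating enzyme *UBA7*, with 1 to 16 counts a library, fell by 1.68 at 24 h (adjusted p = 0.0463). *EIF2AK2*, which encodes the RNA-activated kinase PKR, fell by 0.37 at 6 h (SE 0.0690, adjusted p = 0.000259) and rose by 0.43 at 24 h (SE 0.0688, adjusted p = 6.12e-05). Genes in this paragraph were named as the largest changes each way or for their role, the latter after their values were seen.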
